A study of Mus musculus with 12 samples.

Results

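Among 8 arrays of mouse liver collected after lipopolysaccharide (LPS), 3 read high and 5 read low in a transcript of the exocrine pancreas. The arrays were grouped by 1 measured gene, Cpa1, which encodes carboxypeptidase A1. A log2 value above 7 placed an array among the carriers, and these were S534A LPS replicate 3 with WT LPS replicates 2 and 3. The 8 arrays are part of a series of 12, which also holds 4 arrays of untreated wild-type (WT) liver. All mice were males on the C57Bl/6 background. WT mice were left untreated or were given LPS at 1 µg/kg. S534A mice, given the same dose, carry serine-to-alanine substitution S534A in p65, an NF-kB subunit whose gene is Rela. That allele was knocked in with PTL1 embryonic stem cells and backcrossed 5 times to C57Bl6/J. How long after LPS the livers were taken is not stated in the labels, and untreated S534A livers were not analysed here. No label says that each liver came from a separate animal, so the p-values given for the labelled comparisons measure the spread between these samples, which may be technical.

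Pancreatic acinar cells make most of the digestive enzymes that reach the gut. They store proteases as inactive zymogens, together with lipases, amylase and nucleases, in granules that are released into the pancreatic ducts. A small set of genes makes up most of the messenger RNA of these cells, and the factors Ptf1a, Rbpjl, Bhlha15 (Mist1), Nr5a2 and Gata4 control them. Hepatocytes do not make these zymogens. They share Nr5a2, Gata4 and Nr0b2 with acinar cells. In RNA of whole tissue, a larger number of cells of a type and more RNA per cell cannot be told apart.

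The labelled tissue was checked on its own markers. Albumin (Alb) read 14.04 on average on the 3 carriers and 14.02 ± 0.03 (SD, n = 5) on the other LPS arrays. The mean of the 18 measured hepatocyte markers lay at 13.14 to 13.24 on the carriers and at 13.10 to 13.21 on the others. Array medians over all probe sets ran from 6.15 to 6.32, and no pair of arrays had over 0.0422% identical values. WT LPS replicate 2, a carrier, stood apart: it had the highest median (6.32) and the lowest upper quartile (8.04) of the 12 arrays. Its mean correlation with its own group, 0.987, was the lowest of the LPS arrays. Rela read 11.03 to 11.24 on the 8 LPS arrays, with no order by carrier status, and its probe set cannot see the substitution. With 3 carriers and 5 others, precision is limited by the number of arrays.

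Cpa1 itself read 10.76 on S534A LPS replicate 3, 10.10 on WT LPS replicate 2 and 7.54 on WT LPS replicate 3. On the remaining LPS arrays it read 5.87, 6.11 and 6.06 for S534A replicates 1, 2 and 4, and 6.39 and 6.10 for WT replicates 1 and 4. The untreated livers read 6.16, 5.84, 6.11 and 5.54. The array just above the limit was thus WT LPS replicate 3 and the one just below it WT LPS replicate 1, 1.15 apart. Cpa1 chose the groups, so these values describe them and test nothing.

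Ctrb1, which encodes chymotrypsinogen B1, read 11.49, 10.72 and 8.22 on S534A replicate 3, WT replicate 2 and WT replicate 3, in that order. The other LPS arrays read 6.61, 6.45 and 6.77 in S534A livers, and 7.49 and 6.68 in WT livers. Untreated livers read 7.04, 6.37, 6.41 and 6.36. WT LPS replicate 1 was therefore the highest of the non-carriers in Ctrb1 as well as in Cpa1, and untreated replicate 1 lay above the other untreated arrays. A limit of 7 on Ctrb1 would place 4 LPS arrays above it. A Cpa1 value below 7 thus does not show that pancreatic transcripts were absent. Cel, the bile-salt-activated lipase, read 8.95, 7.87 and 5.88 on the 3 carriers. The other LPS arrays lay between 5.19 and 5.43 and the untreated arrays between 4.94 and 5.54. All 3 pancreatic markers thus put the same 3 LPS arrays on top, with the same order among them. The markers were chosen with earlier results of these data known, so their shared order is description too.

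Acinar enzyme genes are known to be switched on by PTF1, a complex in which Ptf1a with an E-protein binds an E-box and Rbpj or Rbpjl binds a TTCCCA box nearby. Promoter sequences from RefSeq (GRCm38.p6; 250 bases before to 50 after the annotated start) were found for 14 of the 17 genes that were at least 2-fold higher and fully separated on the carriers. Both strands were searched for 2 forms of the E-box and for the TTCCCA box. The E-box form CACCTG stood in 9 of these 14 promoters, and in 20.2% of all 32851 promoters in the table. The form CAGCTG stood in 4 of the 14 and in 16.3% of all. The TTCCCA box stood in 10 of the 14 and in 25.6% of all. An E-box of either form together with TTCCCA stood in 7 of the 14, and in 8.64% of all promoters. The 3 genes that mark the carriers and Cela2a, an elastase gene, are printed below with every match on either strand in capitals. The matches describe letters in these windows. No binding was measured.
Cpa1 (chr6:30638968-30639267, plus strand): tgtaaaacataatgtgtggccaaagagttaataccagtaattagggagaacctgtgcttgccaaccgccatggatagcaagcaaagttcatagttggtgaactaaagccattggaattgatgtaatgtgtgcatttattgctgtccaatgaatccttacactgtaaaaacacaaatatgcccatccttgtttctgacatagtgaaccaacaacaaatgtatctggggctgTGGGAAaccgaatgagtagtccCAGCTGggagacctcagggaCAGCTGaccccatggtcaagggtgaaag
Ctrb1 (chr8:111690961-111691260, minus strand): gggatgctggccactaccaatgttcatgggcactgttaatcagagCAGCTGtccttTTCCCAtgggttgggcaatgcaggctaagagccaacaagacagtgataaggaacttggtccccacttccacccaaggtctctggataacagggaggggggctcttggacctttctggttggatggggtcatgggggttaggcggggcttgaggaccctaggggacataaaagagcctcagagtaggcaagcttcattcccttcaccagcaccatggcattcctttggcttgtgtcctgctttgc
Cel (chr2:28563354-28563653, minus strand): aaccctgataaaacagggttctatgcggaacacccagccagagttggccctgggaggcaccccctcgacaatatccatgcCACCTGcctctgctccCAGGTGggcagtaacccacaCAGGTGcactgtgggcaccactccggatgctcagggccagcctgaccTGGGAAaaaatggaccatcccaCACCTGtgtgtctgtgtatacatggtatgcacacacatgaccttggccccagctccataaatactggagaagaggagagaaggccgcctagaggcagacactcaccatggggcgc
Cela2a (chr4:141825956-141826255, minus strand): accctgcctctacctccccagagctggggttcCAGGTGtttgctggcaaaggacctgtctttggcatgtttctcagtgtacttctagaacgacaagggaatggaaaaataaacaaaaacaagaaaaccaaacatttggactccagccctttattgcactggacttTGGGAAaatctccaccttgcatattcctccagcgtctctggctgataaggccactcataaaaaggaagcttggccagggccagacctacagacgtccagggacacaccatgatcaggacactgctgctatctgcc
Cel had 4 CACCTG matches and 1 TTCCCA match. Cpa1 and Ctrb1 had the CAGCTG form in place of CACCTG, 2 matches and 1 match, each with 1 TTCCCA match. The nearest E-box and TTCCCA matches were 5 bases apart in Ctrb1, 16 in Cpa1 and in Cel, and 127 in Cela2a.

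The carriers were then set against the other 5 LPS arrays across all 19938 genes with 1 symbol, with genotype as a covariate. Of these, 17 genes were at least 2-fold higher with every carrier above every other LPS array (0.0853% of all genes), and 0 were at least 2-fold lower and separated (0%). Both shares come from the contrast that Cpa1 defined and are given as description. The median difference over all genes was -0.01 on the log2 scale, and 19884 genes (99.7%) lay within 0.5 of no difference. A further 3 genes, Try5, Reg1 and Bcl6, were at least 2-fold higher without full separation. All 17 separated genes but 2210010C04Rik, a trypsinogen family gene, stood in the acinar lists. Those lists, like the choice of the 8 arrays, were drawn up with earlier results of these data known.

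**Figure D1:**
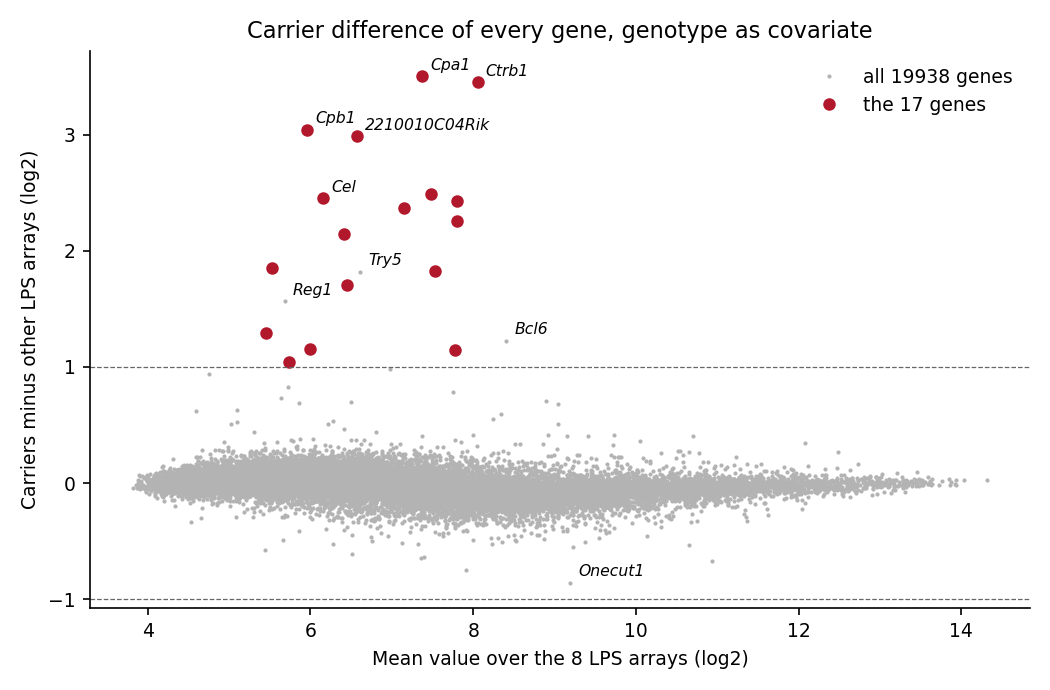
Log2 difference of the 3 carriers from the other 5 LPS arrays (y axis, genotype as covariate) against the mean log2 value over the 8 LPS arrays (x axis); each grey point is 1 of 19938 genes, red points are the 17 genes at least 2-fold higher and separated, dashed lines mark 2-fold. The 17 genes lie between 1.05 and 3.50, while the lowest gene, Onecut1, lies at -0.85.

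Of the 28 digestive enzymes listed, 22 had a probe set of their own. Of these, 13 were at least 2-fold higher and separated (0.0853% of all genes). At any size, 15 were higher and separated (1.08% of all genes), and 0 were lower and separated (1.36% of all genes). The median of the 22 was 1.499, against -0.01 over all genes. The mean of the list was 8.43, 7.72 and 6.60 on S534A replicate 3, WT replicate 2 and WT replicate 3, between 6.12 and 6.29 on the other LPS arrays, and between 5.87 and 6.19 on the untreated arrays. Of the non-carriers after LPS, WT replicate 1 had the highest list mean. S534A replicate 3 weighed most: the median fell to 0.62 without it, and was 1.47 without WT replicate 2 and 1.92 without WT replicate 3.

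Among the proteases, carboxypeptidase B1 (Cpb1) read 9.32, 8.12 and 5.75 on the 3 carriers in the order above, and 4.78 to 5.09 on the other LPS arrays, a difference of 3.04. The elastases Cela3b and Cela2a differed by 2.49 and 1.82. Cela3b read 10.14, 9.34 and 7.33 against 6.39 to 6.78, and Cela2a read 9.79, 8.47 and 7.43 against 6.80 to 7.00. On both, the lowest carrier still stood 0.43 or more above the highest of the other arrays. Cela1, another elastase gene, started from a higher reading of 7.28 to 7.49 and reached 9.37, 8.24 and 7.66, a difference of 1.15. Cela3a differed by 0.37 and was not separated, with WT replicate 2 the highest array at 7.03. Chymotrypsin-like Ctrl read 10.02, 9.79 and 7.46 on the carriers, but its other LPS arrays spread widely, from 6.46 on WT replicate 4 to 7.35 on S534A replicate 4, and untreated arrays lay at 6.08 to 6.44. WT replicate 3 was thus only just above the non-carriers in Ctrl. Ctrl overlaps or lies within 2 kb of Psmb10 and Pskh1 in the RefSeq gene table.

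**Figure D2:**
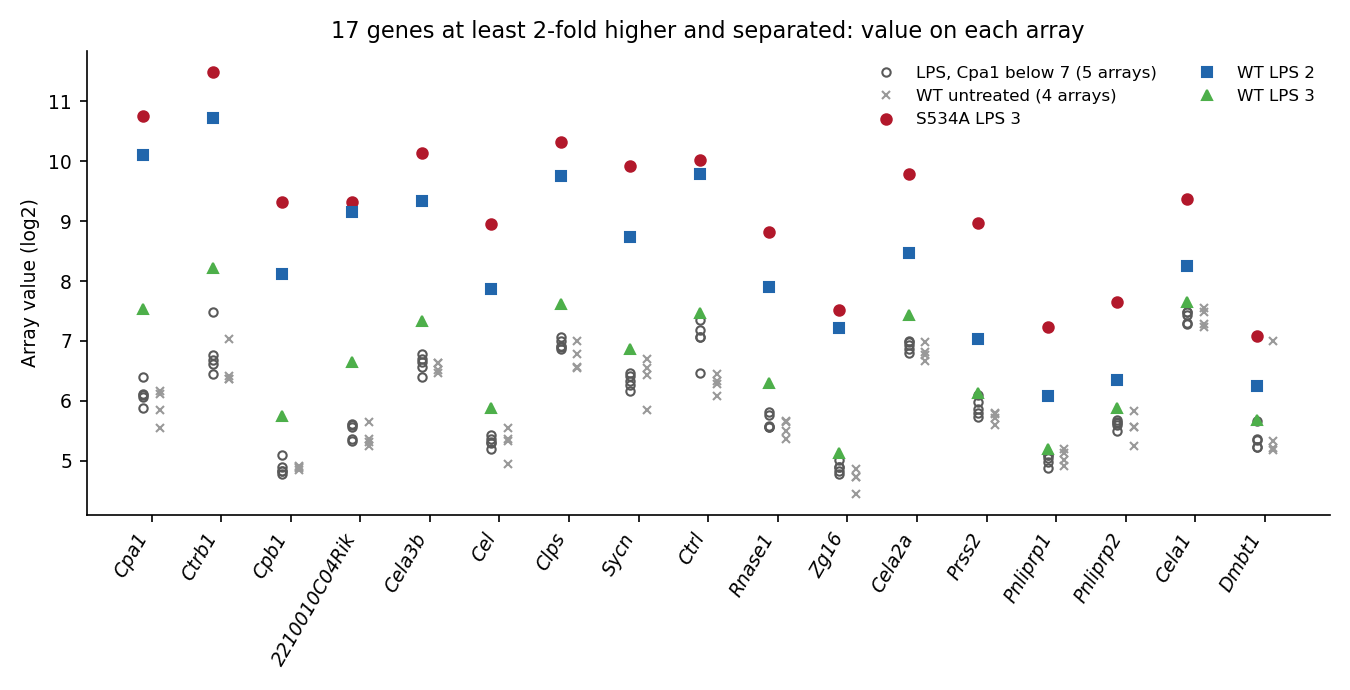
Log2 array value (y axis) of the 17 genes at least 2-fold higher and separated (x axis, ordered by difference); coloured symbols are the 3 carriers, open circles the other 5 LPS arrays, crosses the 4 untreated WT arrays. S534A LPS replicate 3 is the highest and WT LPS replicate 3 the lowest carrier in each gene, and Dmbt1 has 1 untreated array at 7.00.

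The trypsinogen genes lie within the T-cell receptor beta locus (Tcrb) and are close copies of each other, so signal shared between them cannot be separated here. Prss2, anionic trypsinogen, read 8.98, 7.03 and 6.13 on the carriers against 5.73 to 6.09 on the other LPS arrays. The related 2210010C04Rik read 9.31, 9.15 and 6.64 against 5.32 to 5.61. WT replicate 3 cleared the other arrays by 1.03 in 2210010C04Rik and by 0.03 in Prss2. Try5 read 9.06, 7.61 and 6.13 against 5.79 to 6.40, so WT replicate 3 fell within the range of the non-carriers. Try10 differed by 0.83 with separated groups. Prss3 differed by 0.29 and Try4 by 0.17.

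Of the genes for fat digestion, all but Pla2g1b were separated. Colipase (Clps), the cofactor of pancreatic lipase, read 10.32, 9.76 and 7.61 on the carriers against 6.87 to 7.06, a difference of 2.43. The lipase-related genes Pnliprp1 and Pnliprp2 differed by 1.29 and 1.15, and WT replicate 3 exceeded the highest non-carrier by 0.10 and 0.21. Phospholipase Pla2g1b differed by 0.69 but was not separated. Rnase1, pancreatic ribonuclease, read 8.82, 7.90 and 6.29 on the carriers against 5.55 to 5.82, a difference of 2.14. By contrast, the salivary-type amylase gene Amy1 differed by 0.07, chymotrypsin C (Ctrc) by 0.01 and deoxyribonuclease Dnase1 by 0.08. Amy1 read 10.32 to 10.57 on the non-carriers and 10.46 to 10.57 on the untreated arrays. The listed enzymes Prss1, Pnlip, Amy2a5, Amy2b and Klk1 had no probe set of their own and were not analysed here.

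Of the 22 granule and Reg proteins listed, 21 were measured. Of these, 3 were at least 2-fold higher and separated (0.0853% of all genes). At any size, 6 were higher and separated (1.08% of all genes). The median of the 21 was 0.17. Syncollin (Sycn), a protein of the zymogen granule membrane, read 9.92, 8.74 and 6.86 against 6.16 to 6.47 on the other LPS arrays, a difference of 2.36. The granule lectin Zg16 read 7.52, 7.22 and 5.12 against 4.77 to 5.00. Dmbt1, a secreted scavenger receptor protein of many epithelia, read 7.08, 6.25 and 5.68 against 5.23 to 5.67, and 7.00 on untreated replicate 4. That untreated array read 5.54 in Cpa1 and 4.94 in Cel, the lowest of its group in both. In Dmbt1 a high reading therefore also occurred on an array with none of the 3 markers raised.

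The Reg genes, which encode secreted C-type lectins, did not behave as a group. Reg1 read 8.03 on S534A replicate 3, 6.30 on WT replicate 2 and 5.23 on WT replicate 3, against 5.05 to 5.32 on the other LPS arrays. Reg2 was high on S534A replicate 3 only, at 6.64, while WT replicates 2 and 3 read 4.46 and 4.55 within a range of 4.40 to 4.57. Reg3b differed by 0.35 with separated groups, and Reg3a, Reg3d and Reg3g by 0.05, 0.08 and -0.11. Granule glycoprotein Gp2 and the pancreatic disulphide isomerase Pdia2 differed by 0.63 and 0.51. Gp2 was high on S534A replicate 3 (5.94) and WT replicate 2 (5.45) but not on WT replicate 3 (4.91). Cuzd1, Spink1, Serpini2, Tmed6, Tmed11 and Erp27 all lay within 0.17 of no difference. Of the remaining members, the aquaporin gene Aqp12 differed by 0.23 with separated groups. The cholecystokinin receptor gene Cckar (0.20), Ptprn2 (0.12) and Muc1 (-0.10) were not separated.

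No rise of the size of the enzymes' was seen in the acinar transcription factors. All 8 were measured and 0 were separated, beside 1.08% of all genes higher and 1.36% lower. With 8 genes that count is near the share of all genes. The median of the 8 was 0.04. Ptf1a read 5.36, 5.74 and 5.36 on the carriers and 5.29 to 5.50 on the other LPS arrays. Rbpjl read 5.64, 6.05 and 5.63 against 5.40 to 5.75. Both were highest on WT replicate 2, not on S534A replicate 3, which had the most enzyme signal. Their readings lay below the array medians of 6.15 to 6.32, among dim genes, where RMA compresses differences. Bhlha15 was 0.51 lower on the carriers, at 6.55, 6.94 and 7.17 against 6.48 to 7.60, with overlapping groups. Nr5a2, Gata4, Gata6 and Foxp2, which liver cells also express or share with other tissues, lay within 0.08 of no difference, and Nr0b2 differed by 0.14.

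The 3 carriers differed in how much of these transcripts they held. Each was set against the non-carriers of its own genotype, 3 arrays for S534A and 2 for WT. Over the 17 genes the median difference was 3.26 on S534A replicate 3, 2.36 on WT replicate 2 and 0.53 on WT replicate 3. The differences ran from 1.76 to 4.88, from 0.69 to 3.85 and from 0.13 to 1.29. Cpa1 was 26.8-fold higher on the first, 14.4-fold on the second and 2.45-fold on the third. In 17 of the 17 genes the array values had that order. The differences had it in 16, and the exception was Ctrl, at 2.85 on S534A replicate 3 and 2.97 on WT replicate 2. WT replicate 3 was at least 2-fold higher in only 3 of the 17, namely Cpa1, Ctrb1 and 2210010C04Rik. In the other 14 it was less than 2-fold higher, down to 1.10-fold in Pnliprp1.

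**Figure D3:**
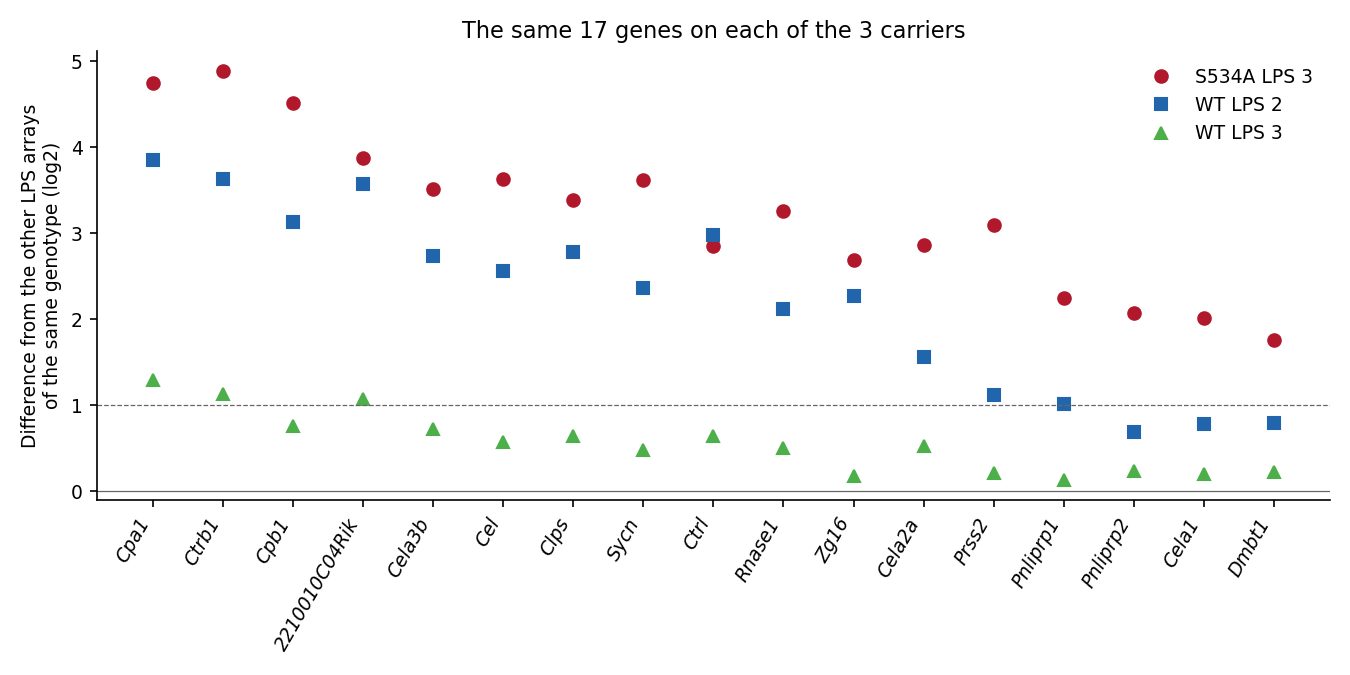
Log2 difference of each carrier from the non-carrier LPS arrays of its own genotype (y axis; 3 arrays for S534A, 2 for WT) for the 17 genes (x axis); the dashed line marks 2-fold. S534A LPS replicate 3 spans 1.76 to 4.88, WT LPS replicate 2 spans 0.69 to 3.85 and WT LPS replicate 3 spans 0.13 to 1.29.

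On the linear scale, the excess of a carrier over the non-carriers of its genotype was computed as the difference of unlogged values. The excess on WT replicate 3 was a median 10.2% of that on WT replicate 2, with Cpa1 at 10.8%, Ctrb1 at 10.2%, 2210010C04Rik at 10.0%, Cel at 9.94%, Sycn at 9.60% and Clps at 9.44%. The share was lowest in Zg16 (3.33%) and highest in Pnliprp2 (28.5%). The excess on WT replicate 2 was a median 42.7% of that on S534A replicate 3, and here the genes spread more widely. It was 87.6% for 2210010C04Rik and 86.3% for Ctrl, 61.1% for Cpa1 and 55.3% for Ctrb1, but 25.6% for Cela1, 20.1% for Pnliprp2 and 15.8% for Prss2. The enzymes thus stood in a different proportion to each other on S534A replicate 3 than on WT replicate 2. With 1 S534A carrier, that difference cannot be told apart from genotype and has no replicate check. The ratios come from single arrays, and array signal is not strictly proportional to RNA at either end of its range.

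Of 17 measured islet genes, 0 were separated, beside 1.08% of all genes higher and 1.36% lower. The median of the 17 was 0.06. Insulin 2 (Ins2) read 6.82, 6.79 and 6.37 on the carriers against 6.05 to 6.37 on the other LPS arrays, a difference of 0.47. WT replicate 3 fell just inside the range of the non-carriers, and the untreated arrays read 6.11 to 6.28. Chromogranin A (Chga), a granule protein of endocrine cells, differed by 0.44. It read 6.72, 7.07 and 7.52 on the carriers against 6.43 to 6.73, and 6.40 to 7.61 on the untreated arrays. Its order among the carriers was the reverse of that of the acinar genes. Glucagon (Gcg) and somatostatin (Sst) differed by 0.10 each, amyloid polypeptide (Iapp) by 0.08 and the beta-cell factors Pdx1 and Nkx6-1 by 0.05 and 0.06. Ins1 had no probe set of its own. Of 12 duct and biliary genes, 0 were higher and separated and 1, Sox9, was lower and separated (-0.28). Over all genes these shares were 1.08% and 1.36%. The median of the 12 was 0.03.

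Other tissues near the liver gave medians within 0.1 of no difference: adipose tissue, intestinal epithelium, gastric epithelium, mesothelium, lymphocytes, red cells, muscle, and nerve with Schwann cells. In these 8 lists 0 members were separated, beside 1.08% of all genes higher and 1.36% lower. The largest single difference was in Tff2, a trefoil peptide of gastric mucus. It read 6.64 on S534A replicate 3, 5.94 on WT replicate 2 and 5.40 on WT replicate 3, against 5.08 to 5.70. Its order among the carriers was that of the acinar genes, without full separation.

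**Figure D4:**
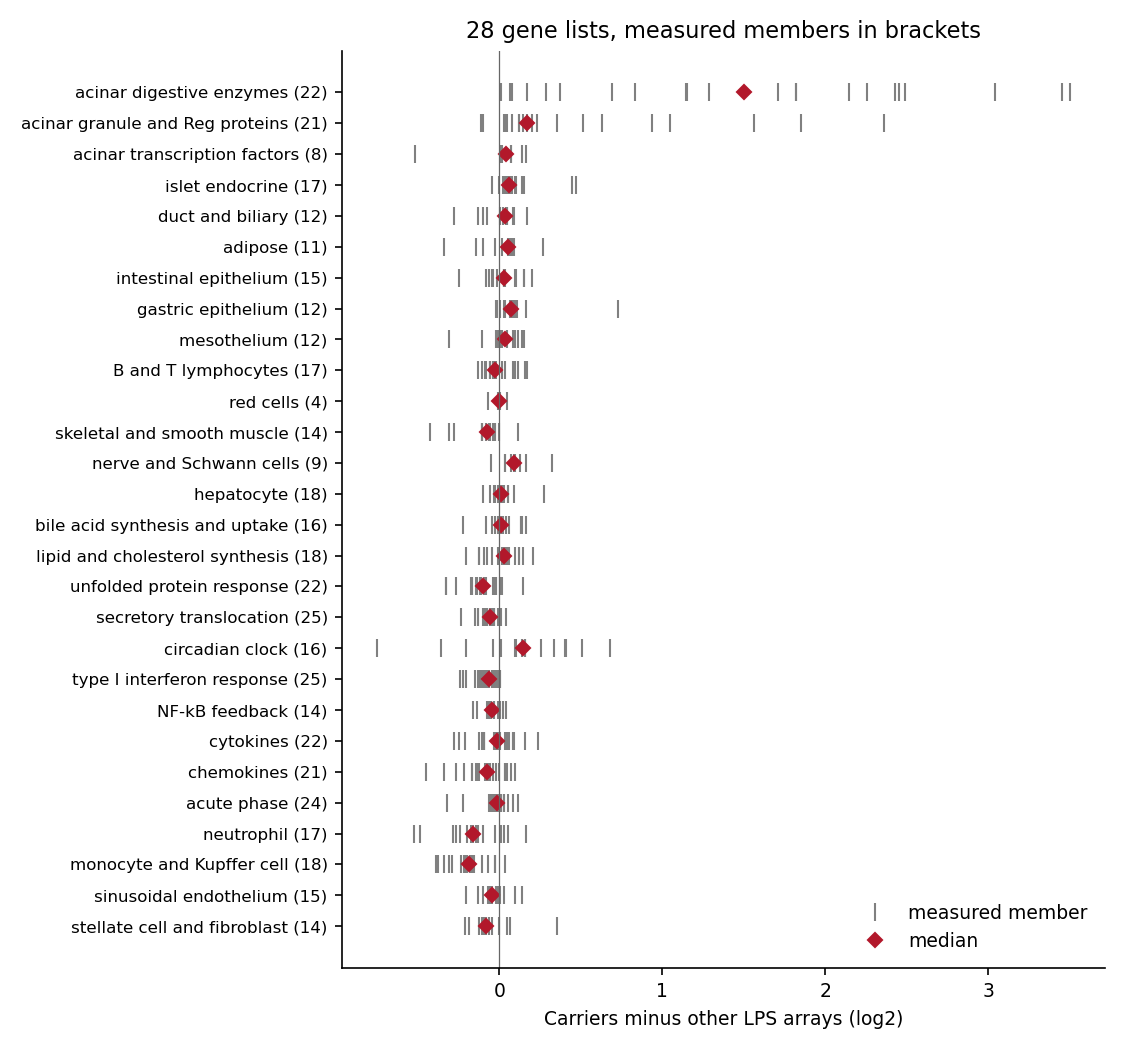
Log2 difference of the carriers from the other LPS arrays (x axis) for 28 gene lists (y axis, number of measured members in brackets); grey ticks are members, red diamonds the list medians. The digestive enzyme list has a median of 1.499, and the other 27 medians lie between -0.19 and 0.17.

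Lists of liver function and of the LPS response had medians near no difference between the 2 sets of arrays. Hepatocyte markers had a median of 0.01, bile acid genes 0.01 and lipid and cholesterol synthesis 0.03. Acute phase genes, the secreted liver proteins raised by inflammation, had a median of -0.01, with Saa3 at 0.08 and Cd14 at -0.32. Interferon-response genes had a median of -0.06, NF-kB feedback genes -0.04, cytokines -0.02 and chemokines -0.07. In these 4 lists 0 members were separated, beside 1.08% of all genes higher and 1.36% lower. On the carriers 8 of 24 acute phase genes, 2 of 25 interferon-response genes, 3 of 14 NF-kB feedback genes, 9 of 22 cytokines and 6 of 21 chemokines were higher. The median over all genes was -0.01, so more of all genes were lower than higher. The exact share of all genes that were higher was not computed, so these counts are no result about the lists. The largest differences in these lists were those of Ccl7 (-0.45) and Ccl2 (-0.34). The unfolded protein response, which is highly active in secretory cells, had a median of -0.10. The secretory translocation list of 25 had a median of -0.06, with 2 members lower and separated, Kdelr1 and Ssr2 (1.36% of all genes).

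Both myeloid lists had medians below 0, while the lymphocyte list had a median of -0.02. The 18 monocyte and Kupffer cell genes had a median of -0.19, and 1 of them, Itgam, was lower and separated (-0.16). The median was -0.08 without WT replicate 2, the array with the compressed distribution, -0.37 without S534A replicate 3 and -0.20 without WT replicate 3. The complement genes C1qb and C1qc read 9.81 and 8.73 on WT replicate 2, against 10.34 and 9.08 on WT replicate 3 and 10.53 and 9.33 on S534A replicate 3. The 17 neutrophil genes had a median of -0.16, and 2, Ly6g and Clec4d, were lower and separated, beside 1.36% of all genes. Ly6g read 5.54, 5.13 and 5.24 on S534A replicate 3, WT replicate 2 and WT replicate 3 against 5.60 to 6.30 on the others. The neutrophil median ran from -0.20 to -0.14 with each carrier left out. The part that array distribution had in these differences was not tested.

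Outside the acinar lists and apart from 2210010C04Rik, which is described above, the separated rises and falls were less than 2-fold. The largest of these rises among genes with a name was Ciart, a circadian repressor, at 0.68, with carriers at 9.31, 9.78 and 9.64 and other LPS arrays at 7.99 to 9.26. It ranged from 4.94 to 10.79 on the untreated arrays, so the difference between LPS arrays was small beside that range. Cyp21a1, the adrenal steroid 21-hydroxylase, followed at 0.51. It was high on WT replicate 3 (7.24) and close to the other arrays on S534A replicate 3 and WT replicate 2 (both 6.21). The next 10 were Tmem59l, Usp2, Gpr119, Pcsk1n, Irx5, Fam102b, Olfr97, Ifnab, Eepd1 and Fcho1, between 0.26 and 0.32. The 8 largest separated falls were those of Rpl12 (-0.50), Ly6g (-0.48), Camk2d (-0.44), Ms4a6b (-0.41), P2ry13 (-0.41), Spty2d1 (-0.40), Capg (-0.37) and Ptpn9 (-0.36). WT replicate 2 was the lowest of the 8 LPS arrays in 7 of these 8 genes, all but Capg.

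Genes at least 2-fold off on a single carrier were 26 higher and 2 lower on S534A replicate 3 (0.13% and 0.01% of all genes). They were 22 and 31 on WT replicate 2 (0.11% and 0.155%), and 11 and 2 on WT replicate 3 (0.0552% and 0.01%). The genes named in this paragraph were chosen after their values were seen. On S534A replicate 3 the 9 higher genes outside the 17 included Try5, Reg1, Reg2, Try10 and Gp2. On WT replicates 2 and 3 they included Bcl6, a transcriptional repressor, which read 9.70 and 9.80 there, against 7.61 and 7.52 on the other WT LPS arrays. Bcl6 read 8.12 on S534A replicate 3 and 7.67 to 8.66 on the other S534A arrays. It also read 9.66 and 9.46 on untreated replicates 2 and 4, where Cpa1 read 5.84 and 5.54 and Cel 5.32 and 4.94. High Bcl6 and high acinar genes thus did not occur on the same arrays throughout.

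The labelled comparisons of the study were then fitted with and without carrier status as a term, since 2 of 4 WT LPS arrays and 1 of 4 S534A LPS arrays are carriers. The groups here are the study's own. Between S534A and WT livers after LPS, limma called 33 genes higher and 1 lower at an adjusted p under 0.05 (0.166% and 0.00502% of 19938 genes) without the term. With it, limma called 17 higher and 0 lower (0.0853% and 0%). At an unadjusted p under 0.05 the fit with the term had 674 higher and 327 lower. The 17 called with the term were all among the 34 called without it, and none gained a call. The adjusted p-values of the 17 that lost theirs lay between 0.055 and 0.118 with the term, and no called gene moved by more than 0.11 or changed sign. With the mean of the digestive enzyme list as a covariate in place of the term, 26 genes were higher and 1 lower.

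Of the 8 called genes with the largest genotype difference with the term, 4 encode cytokines or chemokines: Il1a, Il1b, Il33 and Ccl3. With the term, Il1a, interleukin-1 alpha, was 1.24 ± 0.13 (SE) higher in S534A livers (limma adjusted p = 0.00652), and Il1b was 1.08 ± 0.17 higher (limma adjusted p = 0.0443). Il1a read 9.29, 9.54, 9.46 and 9.46 in S534A livers and 8.12, 7.89, 8.21 and 8.45 in WT livers, with no overlap and with the carriers inside the range of their genotype or, for WT replicate 2, just below it. The others of the 8 were Mxd1, a transcriptional repressor of the MYC network (1.16), the collagenase gene Mmp13 (1.09), cholesterol 25-hydroxylase (Ch25h; 1.01), Chil1 (0.96), Il33 (0.93) and Ccl3 (0.91). Socs1, an inhibitor of cytokine signalling, had the smallest adjusted p with the term (0.89 ± 0.08; limma adjusted p = 0.00208). Without the 3 carriers, which leaves 2 WT and 3 S534A arrays after LPS, limma called 1 gene, Socs1 (0.94; limma adjusted p = 0.0471). At an unadjusted p under 0.05 that fit had 596 higher and 511 lower.

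**Figure D5:**
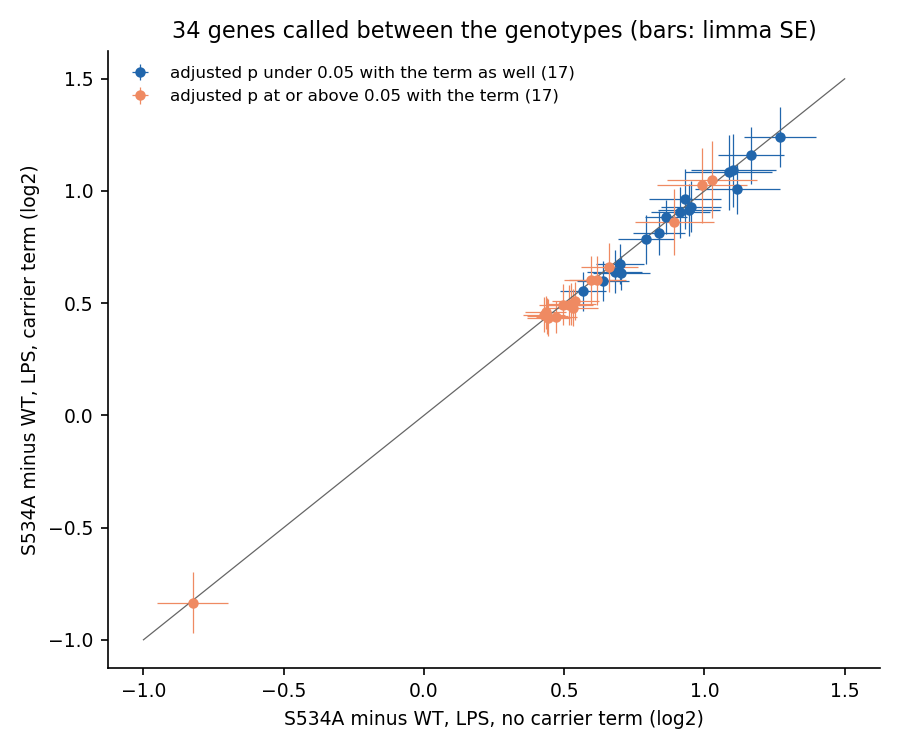
Log2 difference between S534A and WT livers after LPS with the carrier term in the limma fit (y axis) against the same difference without it (x axis) for the 34 genes called without it; bars are limma standard errors and the line marks equal values. No point moves by more than 0.11, and 17 of the 34 have an adjusted p at or above 0.05 with the term.

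The 5 genes with the smallest p among those that lost their call were Cpeb2, an RNA-binding protein (-0.83 in both fits), the receptor gene Lpar6 (0.66), Reg3g (0.54, then 0.51), hexokinase 2 (Hk2; 0.47, then 0.44) and Zfp296 (1.03, then 1.05). Reg3g is an acinar list member but did not follow the acinar genes. It read 5.51, 5.51, 5.57 and 5.51 in S534A livers and 5.16, 4.91, 4.81 and 5.05 in WT livers. Its limma adjusted p went from 0.0258 to 0.0623 with the term. Of the 22 digestive enzymes, 0 were called between the genotypes in either fit. Over all genes 0.166% were higher and 0.00502% lower without the term, and 0.0853% and 0% with it. With 22 genes that count is near the share of all genes. The median of the 22 was 0.03 without the term and 0.48 with it. The single carrier in S534A livers reads higher than both WT carriers, and a term that gives all 3 the same step leaves that excess in the genotype difference. Among the acinar factors Gata6 was called without the term (0.44 ± 0.07; limma adjusted p = 0.0385) and missed the threshold with it (0.44 ± 0.08; limma adjusted p = 0.0906).

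Between the mean of both LPS groups and untreated livers, limma called 2443 genes higher and 3751 lower without the term (12.3% and 18.8% of all genes), and 2136 and 3015 with it (10.7% and 15.1%). The same LPS arrays enter this comparison and the one between genotypes. Of the 6194 called without the term, 5047 were called in both fits, 1147 lost their call and 104 were gained, with 0 changes of sign among the called. The gained genes with the smallest p included Tlr7, the endosomal RNA sensor, at 0.72 ± 0.17 with the term (limma adjusted p = 0.00846) against 0.53 ± 0.19 without it (limma adjusted p = 0.0553). Others gained were Btbd10, Prrc1, Pdp1 and Alg2 among the higher genes and Chpt1, Plppr5, 4930519F09Rik, Kcnk3 and BC085271 among the lower. Those that lost their call with the smallest p were Adcyap1, Olfr1346, Spag11a, Zfp93 and Prm3 among the higher genes, and Glb1l, 4933434E20Rik, Gpx7, Flt3l and Purg among the lower.

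The digestive enzymes as a list stood 0.61 higher after LPS in the median without the term and 0.07 with it. Of the 22, 0 were called in either direction in these 2 fits. Over all genes 12.3% were higher and 18.8% lower without the term, and 10.7% and 15.1% with it. Ctrl was called higher without the 3 carriers, at 0.71 (limma adjusted p = 0.005). So were Try5 at 0.61 (limma adjusted p = 0.0256) and Pla2g1b at 0.24 (limma adjusted p = 0.0323). With the mean of the enzyme list as a covariate, Ctrl was called at 0.54 (limma adjusted p = 0.0417). Try5 was called at 0.37 (limma adjusted p = 0.0499) and Cel at -0.22 (limma adjusted p = 0.0237). That mean includes these same enzymes, and the fit with it called 2150 of all genes higher and 2977 lower. In neither fit was a further enzyme called. Cpa1 was 1.45 ± 0.90 higher without the term (limma adjusted p = 0.251) and 0.14 ± 0.47 with it (limma adjusted p = 0.875). Ctrl kept the largest difference of the 3 chymotrypsin genes with the term, 0.67 ± 0.38 (limma adjusted p = 0.239). Psmb10, which overlaps Ctrl or lies within 2 kb of it, rose by 1.74 after LPS without the term (limma adjusted p = 2.24e-09). It rose by 1.77 without the 3 carriers (limma adjusted p = 5.51e-07). Whether signal from that neighbour enters the Ctrl reading was not tested. In the granule and Reg list of 21, 4 members were called higher without the term and 2 with it, beside 12.3% and 10.7% of all genes, so the list's share with the term is near that of all genes. Reg3g rose by 0.61 ± 0.07 and by 0.66 ± 0.08, with limma adjusted p-values of 3.14e-05 and 6.88e-05, and the mucin gene Muc1 by 0.24 and 0.28. Reg3d and Erp27 were called only without the term. Of the 8 acinar factors, Bhlha15 (1.09, then 1.28) and Gata6 (0.78, then 0.77) rose, and Foxp2 (-0.85, then -0.88) and Gata4 (-0.42, then -0.43) fell, in both fits. These 4 changes were therefore called with carrier status in the fit as well as without it. Beside the 12.3% of all genes higher and 18.8% lower without the term, 2 higher and 2 lower of 8 are no result about the list.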

How the data were processed

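Liver RNA was measured on 12 Affymetrix whole-transcript arrays, and the analysis turns on the 8 arrays after LPS. The authors deposited log2 signals made with RMA, per the submitters' processing notes, a method with background correction, quantile normalisation and a summary value for each probe set. Neither its version nor a genome build is stated in the labels. RMA compresses differences of dim genes and sets the arrays' distributions near equal.

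Of 35556 probe sets, 21789 carried 1 gene symbol, 1621 several and 12146 none; only the first were used, and 21698 matched the RefSeq GRCm38.p6 gene table. For the 999 genes with several probe sets the one with the highest mean was taken, which left 19938 genes. No dim genes were removed. Carriers were the LPS arrays with Cpa1 above 7. Each gene's carrier difference is the coefficient of carrier status beside genotype in limma 3.58.1 (R 4.3.3) on the 8 arrays. It uses the contrast that defined the groups and so has no p. A gene is separated where every carrier lies above, or below, every other LPS array. The labelled comparisons used limma's lmFit and eBayes on all 12 arrays with Benjamini-Hochberg adjustment over 19938 genes, called at 0.05, two-sided, with and without the carrier term. The fit was tested on simulated data. The groups, the 28 gene lists (500 symbols, 454 measured) and the tests were chosen with earlier results of these data known. Named genes were all measured acinar list members, the 12 largest separated rises and 8 largest separated falls outside those lists, leaving out predicted genes, the 2 to 4 largest differences of a described list, and the genes that gained or lost a call with the carrier term. The largest 8 called genotype differences, Rela and Alb were also named. Promoters came from RefSeq, and figures were drawn with matplotlib 3.10.9. Alternatives tried are those given under how the results depend on the processing.

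Replicate numbers do not pair the samples. The correlations of same-numbered arrays' deviations from their group means ran from -0.27 to 0.21.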

Additional observations from a re-analysis of the deposited data

Results flagged for a closer look

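Of 66 named genes looked at in 3 groups of 4 arrays, 29 readings stood apart from the other 3 arrays of their group, with a gap past Dixon's critical value for 4 samples. For genes not chosen by their values, chance sets apart about 1 group in 20. Many of these genes were chosen because the carriers exceeded the other LPS arrays. Since S534A LPS replicate 3 is the only S534A carrier, their standing apart there largely follows from that choice. The chance rate is therefore no measure for the 29 readings. Most were acinar genes on S534A LPS replicate 3: Cpa1 (10.76), Ctrb1 (11.49), Cpb1 (9.32), 2210010C04Rik (9.31), Cela3b (10.14), Cel (8.95), Clps (10.32), Sycn (9.92), Ctrl (10.02), Rnase1 (8.82), Zg16 (7.52), Cela2a (9.79), Prss2 (8.98), Pnliprp1 (7.24), Pnliprp2 (7.65), Cela1 (9.37), Dmbt1 (7.08), Reg1 (8.03), Reg2 (6.64) and Reg3g (5.57). The insulin gene Ins2 (6.82) stood apart on the same array. Reg3g there was only 0.06 above the mean of the other S534A arrays, which lie very close together.

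In WT LPS livers 2 carriers widen the range, so fewer acinar genes stood apart: Zg16 (7.22) and Pnliprp1 (6.08) on replicate 2. Cyp11a1 (6.71) and Scgb1a1 (6.51) stood apart on WT LPS replicate 3. Among untreated livers, Ctrb1 was high on replicate 1 (7.04) and Dmbt1 on replicate 4 (7.00). Olfr97 was low on S534A LPS replicate 4 (4.68), and Mxd1 was low on S534A LPS replicate 1 (10.19).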

How the results depend on the processing

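The carrier contrast is a description, so these values show its dependence on settings. The 17 genes were higher on the carriers under every setting fitted, in 331 of 331 values, and at least 2-fold higher in 313. They were chosen for full separation, which fixes the direction in many of these settings, so the count of 331 tests nothing. Of the 17, 9 have no value once dim genes are left out. The count of genes at least 2-fold higher and separated was 26 on S534A arrays alone, 8 without dim genes, 9 when arrays were grouped by Ctrb1 above 7, 10 at 4-fold, and 14 to 20 with each array left out. The count of genes at least 2-fold lower and separated was 3 on WT arrays alone, 2 on S534A arrays alone, 2 with a replicate block, 9 with the Cpa1 limit at 6 (which leaves 1 array below it), and 0 to 1 with each array left out. The median of the digestive enzymes was 1.32 without the genotype covariate, 0.62 on WT arrays alone, 2.55 on S534A arrays alone, 1.82 without dim genes, 1.91 with the block, 0.84 with the limit at 6, 1.84 with the limit at 8 or with Cel above 7, and 0.62 to 1.92 with each array left out, lowest without S534A LPS replicate 3.

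Between genotypes the count of higher genes was 17 with the carrier term, 1 without the 3 carriers, 70 at an adjusted p under 0.1, 17 with a replicate block, and 9 to 117 with each array left out (9 without WT LPS replicate 3, 117 without WT LPS replicate 1, 12 without S534A LPS replicate 2 or 4). The count of lower genes was 0 with the term, without the carriers or with the block, 2 with trend and robust settings, with median centring or without dim genes, 8 with repeated quantile normalisation, 9 at 0.1, and 0 to 6 with each array left out (6 without WT LPS replicate 2). Counts after LPS stayed within 1.5 times under all settings. The cause of these changes was not tested. The block pairs arrays that share only a number.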

Other observations

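Genes of other organs stood high on some arrays without following the acinar genes. These genes were chosen after their values were seen. Star, which moves cholesterol into mitochondria for steroid synthesis, read 7.61 on WT LPS replicate 3 and 6.66 and 7.37 on untreated replicates 2 and 3. On the other 9 arrays it read 5.25 to 5.89. The adrenal enzymes Cyp11a1 (6.71, 5.47 and 6.48 on those 3 arrays), Cyp11b1 (6.32, 5.74 and 6.46) and Cyp21a1 (7.24, 7.26 and 8.07) were high on the same arrays. So was chromogranin A (Chga; 7.52, 7.51 and 7.61), which adrenal medulla and islets both make. Some adrenal genes did not share this pattern: the steroidogenic factor gene Nr5a1 and the catecholamine genes Th and Pnmt were highest on WT LPS replicate 2 (7.16, 6.45 and 5.51), and the corticotropin receptor gene Mc2r read 4.78 on WT LPS replicate 3 and up to 4.91 elsewhere. Untreated replicates 2 and 3 read 5.84 and 6.11 in Cpa1, within the range of the non-carriers. Scgb1a1, the club cell secretoglobin of the airway, read 6.51 on WT LPS replicate 3 and 4.20 to 4.39 on the other 11 arrays, and the surfactant gene Sftpc read 5.91 there against 5.00 to 5.41. These airway and lung genes were not highest on that array: Sftpb at 6.01, Sftpd at 5.83, Sftpa1 at 6.39, Scgb3a1 at 5.69, Scgb3a2 at 4.72 and Aqp5 at 7.02.

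Liver genes that were at least 2-fold off on a single carrier differed from carrier to carrier. On S534A LPS replicate 3, the retinoid genes Cyp26a1 (9.19 against 6.76 to 7.01 on the other S534A arrays) and Lrat (9.03 against 7.69 to 8.03) were higher, and Igfbp1 was lower (9.25 against 10.41 to 10.72). On WT LPS replicate 2, Cish, a cytokine-induced SOCS family gene, was lower (7.51 against 9.10 to 9.20), as were the interferon-inducible Ifi208 (7.21 against 8.60 to 8.63) and Ifi209 (7.23 against 8.69 to 8.72). Onecut1, a hepatocyte transcription factor, was lower on WT LPS replicates 2 and 3 (8.52 and 9.14 against 9.95 to 10.86). It also ranged from 9.26 to 11.05 on the untreated arrays and from 8.30 to 9.31 on the S534A arrays below the limit.

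Circadian genes varied widely among arrays of one label. Arntl (Bmal1) read 9.03 and 9.08 on untreated replicates 1 and 3 but 6.29 and 6.20 on replicates 2 and 4, and its output gene Dbp ran the other way, at 8.14, 7.59, 11.19 and 11.39. Among the LPS arrays Arntl was 7.42, 7.37 and 7.52 on the carriers and 7.44 to 8.83 on the others, so that WT LPS replicate 4, a non-carrier, read like the carriers. The 16 measured clock genes had a median carrier difference of 0.15. The largest differences were those of Arntl (-0.75), Ciart (0.68) and Dbp (0.51). Only 1 member, Ciart, was higher and separated, beside 1.08% of all genes. The list mean lay at 8.66 to 8.81 on the carriers and at 8.42 to 8.74 on the others.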
